A study of Mus musculus with 12 samples.

Results

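Broad MOF domains at coding promoters were the Mof+/+ peaks on chromosomes 1 to 19 that were at least 2000 bp wide and lay within 1000 bp of the start site of a protein-coding transcript (GENCODE release M21, GRCm38). They were selected on peak width, a measured value, so their width and the measures tied to it are given as a description. There were 861 such domains among the 19773 peaks of the Mof+/+ list and the 20504 peaks of both lists. They made up 9.19% of the 9367 Mof+/+ peaks at coding promoters and held 28.7% of the sequence under those peaks. The other 8506 coding-promoter peaks, all under 2000 bp, are called narrow here. A further 457 broad peaks lay away from coding promoters.

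The data came from chromatin immunoprecipitation and sequencing (ChIP-seq) of MOF in visceral white adipose tissue of mice labelled C57BL/6, from lines backcrossed to C57BL/6J, 8 weeks old and kept on a standard diet. Mof+/+ mice, labelled wild type, carried both copies of the gene, and Mof+/- mice carried a single copy. Each genotype had 2 MOF ChIP libraries by its labels, and the H3 ChIP and input libraries also described were not analysed here. A single peak list stood for each genotype, with no value per animal, so the spread between animals is unknown and no test of genotype was made.

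MOF, also called KAT8, is the acetyltransferase that places acetyl groups on lysine 16 of histone H4. It works in separate complexes named MSL and NSL, the latter found mainly at the promoters of active genes. A peak marks a stretch where immunoprecipitated fragments exceeded the input DNA, its summit is the position of most fragments, and fold enrichment is the ratio of fragments at the summit to the local background, each plus 1. Promoters rich in CpG sites (a C followed by a G) are typical of housekeeping and developmental genes, while many genes of specialised cells have promoters with few CpG sites.

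The sequence at the summit differed widely among domains. Below are 120 bases centred on the Mof+/+ summit of 8 domains, on GRCm38, with each CpG in capitals. Sp9, Mcl1 and Igf2bp3 were taken by rank of width. Isl2, Zfp36l2, Cd52, Gimap6 and Clec2d were added after their values were seen, to show summits rich and poor in CpG.
Sp9, chr2:73272753-73272872, + strand: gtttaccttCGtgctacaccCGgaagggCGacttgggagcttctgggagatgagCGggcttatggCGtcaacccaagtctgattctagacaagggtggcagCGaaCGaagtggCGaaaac
Mcl1, chr3:95659297-95659416, + strand: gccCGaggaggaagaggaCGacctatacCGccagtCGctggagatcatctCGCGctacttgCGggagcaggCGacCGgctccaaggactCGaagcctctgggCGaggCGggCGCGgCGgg
Igf2bp3, chr6:49218216-49218335, + strand: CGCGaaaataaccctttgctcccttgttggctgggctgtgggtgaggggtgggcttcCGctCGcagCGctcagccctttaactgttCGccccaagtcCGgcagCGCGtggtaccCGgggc
Isl2, chr9:55544067-55544186, + strand: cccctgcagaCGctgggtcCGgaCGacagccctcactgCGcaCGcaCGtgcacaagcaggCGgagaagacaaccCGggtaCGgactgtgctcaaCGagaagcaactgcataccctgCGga
Zfp36l2, chr17:84186158-84186277, + strand: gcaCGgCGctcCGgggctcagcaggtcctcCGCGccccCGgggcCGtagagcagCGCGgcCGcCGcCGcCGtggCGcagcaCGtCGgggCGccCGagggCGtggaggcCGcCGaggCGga
Cd52, chr4:134094162-134094281, + strand: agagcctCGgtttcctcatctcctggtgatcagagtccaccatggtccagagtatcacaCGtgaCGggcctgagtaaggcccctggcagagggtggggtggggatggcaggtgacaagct
Gimap6, chr6:48706440-48706559, + strand: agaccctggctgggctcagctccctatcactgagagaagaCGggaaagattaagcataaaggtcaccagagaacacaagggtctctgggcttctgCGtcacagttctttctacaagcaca
Clec2d, chr6:129182737-129182856, + strand: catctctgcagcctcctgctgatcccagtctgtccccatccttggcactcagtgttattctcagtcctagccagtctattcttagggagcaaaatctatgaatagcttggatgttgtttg
The Zfp36l2 summit held 22 CpG sites in 120 bases and lay in coding sequence, as did those of Mcl1 with 15 and Isl2 with 11. The Igf2bp3 window had 10 and lay outside coding genes, and the Sp9 window, in an intron, had 8. The windows at Cd52, Gimap6 and Clec2d, all in introns, had 3, 2 and 0.

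The domains had a median width of 2628 bp (interquartile range 2266 to 3491, widest 13812), and the narrow peaks 701 bp. Just inside the width limit were peaks at Zpbp2 (2000 bp), Cbl (2001 bp) and Themis2 (2003 bp), and just outside it were peaks at Hist1h2bb (1999 bp), Wac (1998 bp) and Spin1 (1997 bp). The median fold enrichment was 5.31 (interquartile range 4.54 to 6.19) in the domains and 3.76 (3.12 to 4.42) in the narrow peaks. The median summit rested on 25 fragments in the domains and on 17 in the narrow peaks, over a median input background of 3.52 fragments in both. The summit values of single domains therefore carry a sizeable counting error.

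The widest domain lay over Sp9, which encodes a zinc finger transcription factor of the developing brain and limbs (chromosome 2, 73267713 to 73281524). It was 13812 bp wide, had a fold enrichment of 10.1 and covered the whole gene. Mcl1, an inhibitor of apoptosis in the BCL2 family, had a domain of 12852 bp (chromosome 3, 95657804 to 95670655, fold enrichment 8.41). Cd74 encodes the invariant chain that accompanies MHC class II molecules, and its domain measured 12777 bp (chromosome 18, 60801927 to 60814703, fold enrichment 8.85). At Igf2bp3, an RNA-binding protein gene, the domain of 11337 bp reached 9030 bp upstream of the start and 2306 bp into the gene (chromosome 6, 49212651 to 49223987). These widest domains thus belonged to genes of quite different kinds.

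A domain of 11059 bp on chromosome 7 (126695395 to 126706453) reached start sites of Bola2, Slx1b and Coro1a, the last a coronin of leukocytes. A domain of 10688 bp on chromosome 9 (109050494 to 109061181) did so for Trex1, an exonuclease that degrades DNA in the cytosol, and for Atrip and Shisa5. Zfp36 and Zfp36l2, whose proteins promote the decay of AU-rich mRNAs, had domains of 10534 bp (chromosome 7, 28374437 to 28384970) and 9802 bp (chromosome 17, 84180368 to 84190169). Irf2bp2, a corepressor gene, had one of 10194 bp (chromosome 8, 126586855 to 126597048). The tenth by width was at Shox2, a homeobox gene, and also reached a start site of Rsrc1, at 9593 bp (chromosome 3, 66975144 to 66984736).

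The order by fold enrichment was not the order by width. Igf2bp3 had the highest value, 14.9, with 72 fragments at its summit. Hmx2, a homeobox gene, followed at 12.2 with 55 fragments, then Trex1 at 12.2 with 62 and Zfp36l2 at 11.1 with 49. Stk17b, a kinase gene, and Klf2, a transcription factor that keeps lymphocytes quiescent, both stood at 10.6 with 47 fragments. Prr7 and the domain shared by Brd2, a reader of acetylated histones, and H2-DMa, which loads peptides on MHC class II, were both at 10.2 with 45 fragments. Sp9 came next with 10.1, also on 45 fragments, and the LIM homeobox gene Isl2 was level with the translation elongation factor gene Eef1a1 at 9.51 on 42 fragments each. At such counts most neighbours in this order cannot be separated. Width and enrichment did not go together in each case, since the Prr7 and Eef1a1 domains were 2856 and 2453 bp wide.

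The domains reached start sites of 922 of the 20698 protein-coding genes on chromosomes 1 to 19, or 4.45%, while 42.0% had any coding-promoter peak. Of the domains, 775 held 1 gene, 80 held 2, 5 held 3 and 1 held 4. Start sites of 30 genes fell in 2 or more domains. Foxp1, a forkhead factor of lymphocytes, and Pik3cd, a leukocyte PI3-kinase subunit, had 3 each. Per 100 coding genes, the number of domains ran from 2.56 on chromosome 14 (23 domains) to 5.43 on chromosome 17 (57 domains).

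Position was read along the direction of transcription, from the coding start site nearest to the summit. That start was covered by 93.6% of the domains (95% Wilson interval 91.8 to 95.1) and by 60.7% of narrow peaks, a share that goes with width itself. Domains that covered it reached a median of 1151 bp upstream and 1588 bp downstream. Their downstream part took a median of 57.9% of the length (95% interval of the median 55.8 to 60.7), against 55.8% in narrow peaks, and was the longer part in 61.4%. Domains therefore leaned into the gene, by about the same proportion as narrow peaks.

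**Figure D1:**
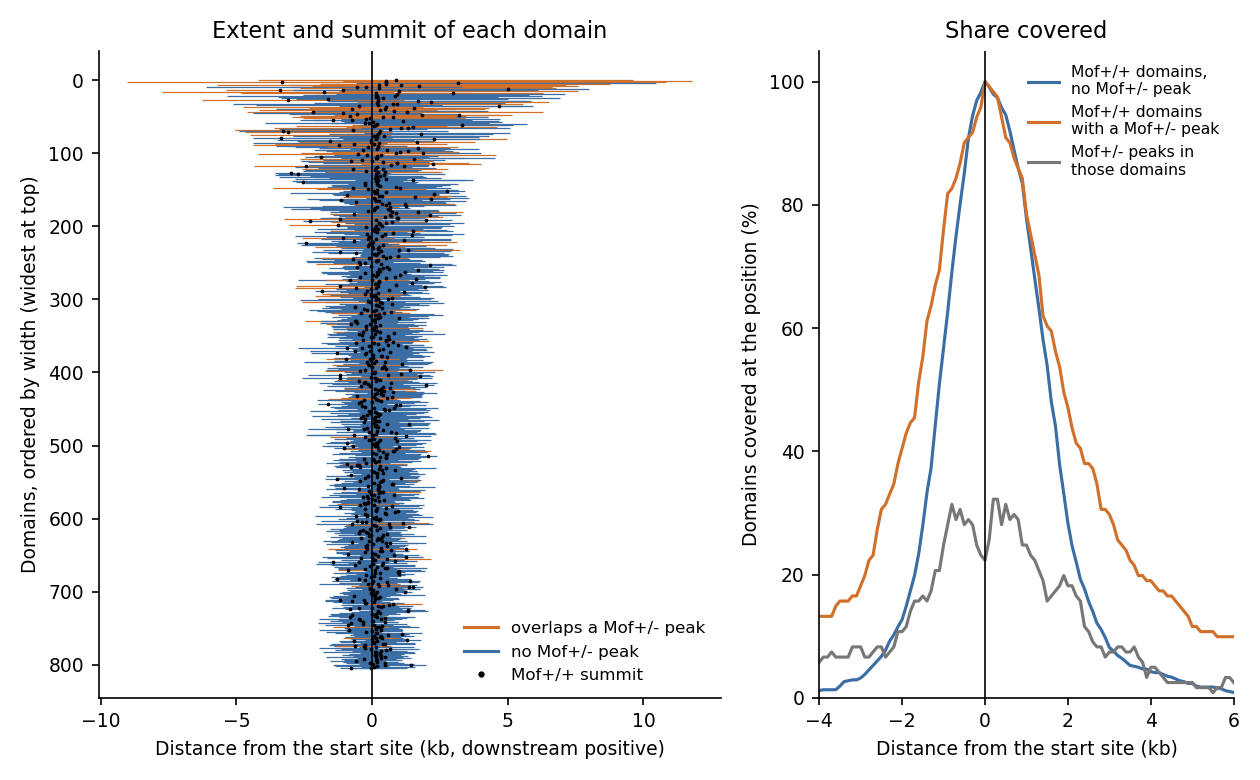
Left, each horizontal line is a domain that covered its start site, from its upstream to its downstream end in kb, ordered by width, with the Mof+/+ summit as a black dot; orange lines overlap a Mof+/- peak. Right, the share of domains covered at each distance from the start; the Mof+/- peaks in overlapped domains cover 22.3% at the start itself and 32.2% at 300 bp downstream.

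The summit lay downstream of the start in 67.1% of domains (63.9 to 70.2) and in 64.5% of narrow peaks (63.5 to 65.5). Its median position was 163 bp downstream in domains and 95 bp in narrow peaks. Within 250 bp of the start lay 38.7% of domain summits (35.5 to 42.0) and 55.6% of narrow ones, and within 1000 bp 82.8% and 95.7%. Along the domain itself, from 0 at the upstream end to 1 at the downstream end, the median summit stood at 0.476. The middle one of 3 equal parts held 51.1% of domain summits (47.8 to 54.4) and 37.0% of narrow ones (36.0 to 38.0), so that domains were more often highest near their centre. Of the summits, 44.8% were in introns, 21.8% in UTRs, 19.2% outside coding genes and 14.2% in coding sequence.

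Most domains covered only the 5′ end of the gene. The whole gene was covered in 54 domains (6.27%, 4.84 to 8.09) and in 0.223% of narrow peaks. Sp9, Mcl1, Cd74, Trex1, Zfp36, Zfp36l2, Irf2bp2 and Klf2 were among those covered entirely, from 1802 bp (Trex1) to 8805 bp (Cd74) in length. At Igf2bp3, with 129735 bp, the domain took in 1.78% of the gene.

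CpG content varied widely. Over the whole length the domains held a median of 49.8 CpG sites per kb (47.9 to 52.0) and the narrow peaks 64.2. Within 500 bp on each side of the summit the order was the other way, with 67.9 (64.9 to 71.9) in domains and 61.9 (60.9 to 61.9) in narrow peaks. The domains were thus richer in CpG at their summits than over their whole length. The 457 broad peaks away from coding promoters held 15.3 per kb. Soft-masked repeats took 11.2% of domain length and 6.58% of narrow peaks. RGCY, where the enzyme used to cut the chromatin acts, occurred 24.9 times per kb of domain and 24.6 times per kb of narrow peak.

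Under 20 CpG sites per kb were found in 111 domains (12.9%, 10.8 to 15.3), about the share of the narrow peaks (12.1%). The widest of them were at Cd74, Trex1, Cd52, Akna and Gimap6, with 14.6, 16.0, 10.9, 15.4 and 6.44 CpG sites per kb. H2-Aa, an MHC class II chain, had 9.37 and Cd79b, a chain of the B cell receptor complex, had 13.04. These genes were chosen after their values were seen. Of the 111, 14 (12.6%, 7.66 to 20.1) held a gene of the B cell, T cell or shared leukocyte lists described next, as did 14 of the 750 others (1.87%, 1.12 to 3.11). Homeobox genes showed the opposite pattern, in 0 of the 111 and in 42 of the 750 (5.60%, 4.17 to 7.48).

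Lists of genes were used to ask which kinds of genes carried domains, against 4.45% of all coding genes. In a tissue, fewer cells of a type and less signal per cell cannot be told apart. None of 24 adipocyte genes had a domain, which by the Wilson interval allows a share of up to 13.8%, although 15 of them had a narrow promoter peak. The widest were at Scd1 (1941 bp), a stearoyl-CoA desaturase, and Fasn (1644 bp), the fatty acid synthase. No gene of the macrophage (20), endothelial (20), mesothelial (15), neuron (19) or hepatocyte (19) lists had a domain. In lists of this size the Wilson intervals reach up to between 16.1% and 20.4% and include the 4.45% of all coding genes, as does that of the adipocyte list. Promoter peaks were present in 1, 2, 3, 2 and 0 genes of these lists, from 0% to 20%, against 42.0% of all coding genes. Of 20 fibroblast and progenitor genes only Pdgfra, a receptor of adipocyte progenitors, had a domain (3069 bp). The cell makeup of the tissue was not measured.

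Genes shared by leukocytes had domains in 15 of 20 (75.0%, 53.1 to 88.8). The widest were at Coro1a (11059 bp), at Cd52 (8231 bp), a surface glycoprotein gene, at Ptpn6 (5032 bp), a phosphatase that restrains receptor signalling, and at Runx3 (4907 bp), a transcription factor of T cells. B cell genes had domains in 6 of 20 (30.0%, 14.5 to 51.9), with 5368 bp at Cd79b, 4542 bp at Pax5, the factor that fixes B cell identity, 3436 bp at Cxcr5, the chemokine receptor of follicles, and 2982 bp at Ikzf3, a lymphoid zinc finger factor. T cell genes had them in 4 of 20 (20.0%, 8.07 to 41.6): Lef1 (8475 bp) and Tcf7 (4612 bp), both effectors of Wnt signalling, Cd3d (2749 bp), a T cell receptor chain, and Lck (2047 bp), its kinase. All 3 shares lay above the 4.45% of all coding genes. The lists were chosen with earlier results of these data known and genes are not replicates. These shares are therefore a description, and no difference from all genes was tested.

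**Figure D2:**
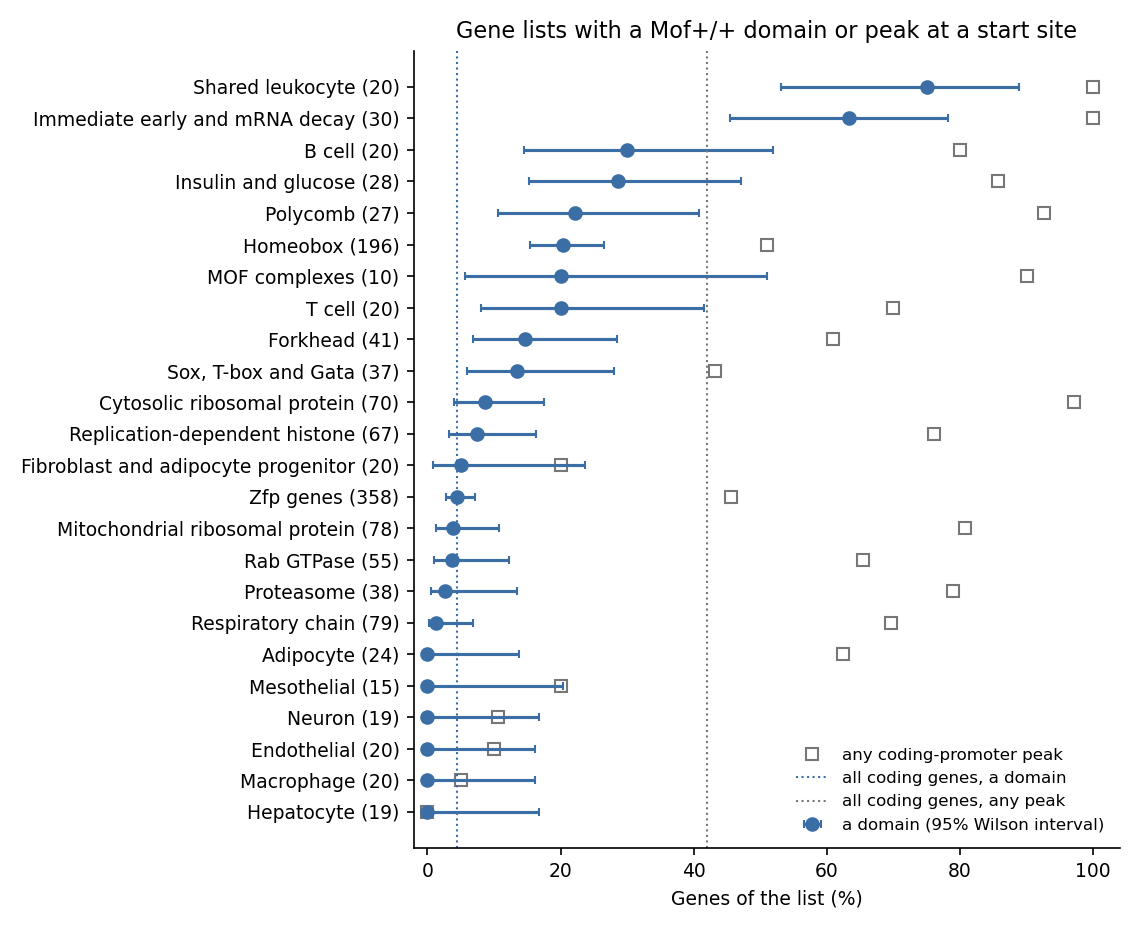
Share of the genes of each list with a domain (filled circles, 95% Wilson intervals) and with any coding-promoter Mof+/+ peak (open squares), in percent of the genes given in brackets; dotted lines mark all coding genes, 4.45% and 42.0%. Shared leukocyte and immediate early genes lie furthest to the right, while adipocyte genes have peaks in 62.5% and a domain in none.

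Immediate early genes, which are induced within minutes of a stimulus, and genes of mRNA decay had domains in 19 of 30 (63.3%, 45.5 to 78.1), and all 30 had a promoter peak. After Zfp36 and Zfp36l2 the widest were at Jund (6898 bp), a subunit of the AP-1 factor, and Zfp36l1 (6667 bp). They were short genes, of a median 3470 bp, and a median of 66.7% of the gene lay in the domain. The summit was downstream of the start in 15 of the 19.

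Of 28 genes of insulin signalling and glucose use, 8 had a domain (28.6%, 15.3 to 47.1). Txnip, which restrains glucose uptake, had 7012 bp, and Mef2d, a transcription factor of muscle and neurons, had 6219 bp. The forkhead factors Foxo1 (3133 bp) and Foxo3 (3004 bp), which insulin signalling inhibits through Akt, followed, and the others were Irs2, Pik3r1, Mef2c and Akt1. In the paper, ChIP-qPCR of this tissue found no MOF enrichment at the Mef2c promoter, and the positions measured were not compared here. Polycomb genes, whose products repress developmental genes, had domains in 6 of 27 (22.2%, 10.6 to 40.8), among them Cbx8 (8555 bp), Jarid2 (3382 bp) and Cbx7 (2773 bp).

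Among 10 genes of the MOF complexes on these chromosomes, Msl1, the scaffold of the MSL complex (3468 bp), and Kansl1l, a relative of an NSL subunit (2153 bp), had domains. Kat8 itself had a narrow peak of 1566 bp with a fold enrichment of 4.20, Msl2 of 1955 bp and Kansl1 of 1913 bp. Narrow peaks at Mcrs1 (753 bp), Phf20 (932 bp), Wdr5 (531 bp) and Kansl2 (368 bp) were shorter, and Kansl3 had no promoter peak. Of these 10 genes, 9 thus had a promoter peak and 2 a domain.

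Lists of genes that most cells express had shares with intervals that include the 4.45% of all coding genes. The share was 8.57% of 70 cytosolic ribosomal protein genes (3.99 to 17.5), of which 97.1% had a promoter peak. Among them were Rpl12 (2476 bp) and Rpl10a (2369 bp). Of 78 mitochondrial ribosomal protein genes 3.85% had a domain, the widest at Mrps18b (3350 bp), Mrps34 (2108 bp) and Mrpl41 (2101 bp). In the respiratory chain list only Ndufa13 of 79 did (2095 bp), and in the proteasome list only Psmb8 of 38 (3811 bp), a subunit of the immunoproteasome. Replication-dependent histone genes had domains in 5 of 67 (7.46%), 3 of these sharing a domain of 3536 bp (Hist2h2ab, Hist2h2ac and Hist2h2be) and the others being Hist2h4 (2700 bp) and Hist3h2ba (2349 bp). Rab43 (2641 bp) and Rab24 (2022 bp) were the only ones of 55 Rab genes, and 16 of 358 Zfp genes (4.47%) had a domain, at about the share of all genes. Besides Zfp36, the widest of those were Zfp513 (5190 bp), Zfp335 (4166 bp) and Zfp703 (3443 bp).

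Developmental transcription factors were the remaining group. Domains lay at 40 of 196 homeobox genes (20.4%, 15.4 to 26.6), at 6 of 41 forkhead genes (14.6%, 6.88 to 28.4) and at 5 of 37 Sox, T-box and Gata genes (13.5%, 5.91 to 28.0). By width the homeobox genes were led by Shox2 (9593 bp), Isl2 (8463 bp), Lhx9 (6647 bp) and Hmx2 (6134 bp). The forkhead genes were led by Foxp1 (3693 bp), Foxc1 (3668 bp), and Foxa1 and Foxo1 at 3133 bp each. Sox2, a factor of stem cells, had 4450 bp, Eomes 2833 bp, Sox4 2434 bp and Tbx15, a factor of adipocyte and skeletal development, 2388 bp. That list was matched by symbol and leaves out Tbr1, a T-box gene named here after its values were seen, whose domain of 6114 bp held 3 Mof+/- peaks.

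The last question was how much of the domains recurred in the Mof+/- list, which held 712 peaks on chromosomes 1 to 19. A Mof+/- peak shared at least 1 bp with 143 of the 861 domains (16.6%, 14.3 to 19.2), against 1.62% of narrow peaks (1.37 to 1.91) and 3.00% of all coding-promoter peaks. A broad peak has more room for an overlap, and for the 457 broad peaks elsewhere the share was 15.5% (12.5 to 19.1). In a window of fixed size, 100 bp on each side of the Mof+/+ summit, a Mof+/- peak was present at 9.87% of domains (8.05 to 12.05), at 1.14% of narrow peaks (0.936 to 1.39) and at 1.94% of all coding-promoter peaks. At the broad peaks elsewhere it was 11.2% (8.59 to 14.4), an interval that includes the share of the domains. Broad peaks at coding promoters and elsewhere thus both had larger shares than narrow promoter peaks in this window. The fold enrichment of the domains was higher than that of narrow peaks too.

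The share was higher in each wider class. It was 7.61% at 2000 to under 2500 bp, 13.3% to under 3000 bp, 17.2% to under 4000 bp, 32.7% to under 6000 bp and 54.7% (41.5 to 67.3) in the 53 domains of 6000 bp or more. At the summit the shares went from 5.07% to 34.0% over the same classes. The median fold enrichment went from 4.87 to 6.19 over them, and CpG content from 59.5 to 30.6 sites per kb. The part of width, enrichment and CpG content in the overlap was not tested.

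**Figure D3:**
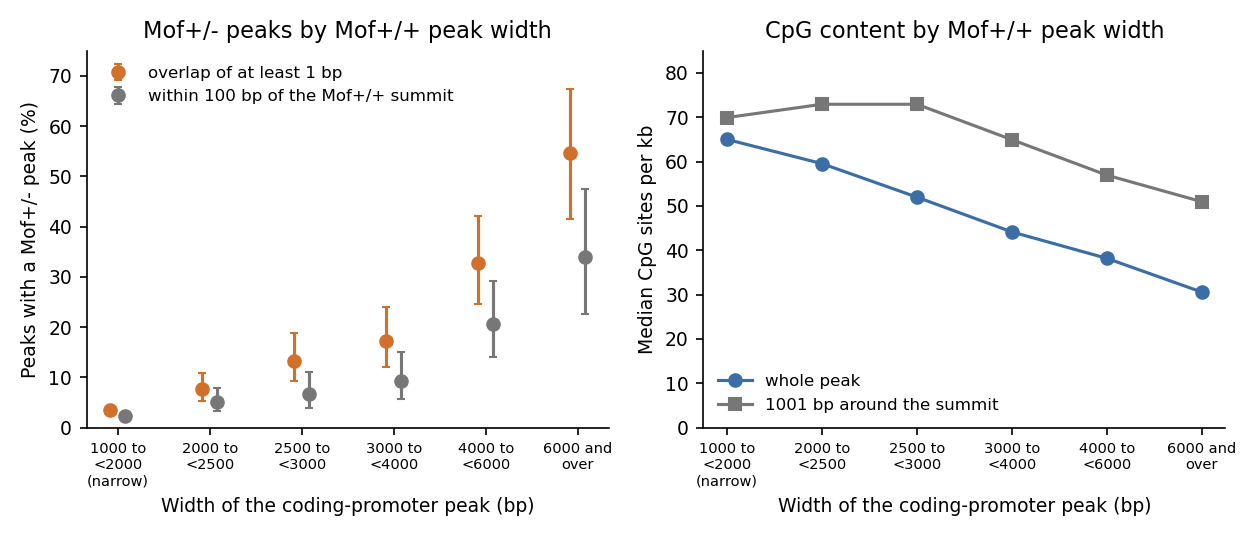
Left, the share of coding-promoter Mof+/+ peaks with a Mof+/- peak, by width in bp, for any overlap (orange) and within 100 bp of the Mof+/+ summit (grey), with 95% Wilson intervals; it goes from 7.61% to 54.7% of the domains. Right, the median CpG sites per kb over the whole peak (blue) and in a window of about 1 kb at the summit (grey), which both are lowest in the widest class.

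Most of the length of an overlapped domain was still not under a Mof+/- peak. The median covered share was 24.9% (interquartile range 11.3 to 47.7), with at least 50% covered in 32 domains and at least 75% in 8. A single Mof+/- peak lay in 93 domains, 2 in 32, 3 in 12, 4 in 5 and 6 in 1, the Sp9 domain. The 219 Mof+/- peaks in domains were 30.8% of the list (27.5 to 34.2). They had a median width of 542 bp and a fold enrichment of 4.51, against 416 bp and 4.29 for the other Mof+/- peaks. Their summits rested on a median of 15 fragments over a background of 2.26.

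The strongest Mof+/- peak of a domain had its summit a median of 422 bp from the Mof+/+ summit, within 100 bp in 27.3% and within 1000 bp in 82.5% of the 143. Its fold enrichment was below that of the domain in 102 of the 143 (71.3%, 63.4 to 78.1). The median input background given above was lower for the Mof+/- peaks than for the domains, and no scaling for depth was made. The fold enrichments of the lists are therefore not on the same scale, and this share does not measure a change in MOF. Around the start, among the 121 overlapped domains that covered it, Mof+/- peaks were present in 22.3% at the start itself, 23.1% at 100 bp upstream and 25.6% at 100 bp downstream. The highest values on each side, picked after they were seen, were 31.4% at 800 bp upstream and 32.2% at 200 and 300 bp downstream. No difference between these positions was tested, and the domains compared here all covered the start by selection.

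The overlapped domains differed from the other 718 in several ways. Their median width was 3661 bp against 2546 bp, and their fold enrichment 6.17 (5.75 to 6.42) against 5.31 (5.09 to 5.31). The gene at the nearest start had a median length of 10039 bp against 25579 bp, and was wholly covered in 13.3% against 4.87%. Their summit lay within 250 bp of the start in 20.3% (14.5 to 27.6) against 42.3% (38.8 to 46.0). Domains of under 20 CpG sites per kb made up 4.20% against 14.6%. Overlap was thus more frequent among wide domains and among those with the summit away from the start. These traits were not separated from each other, as summit distance was not compared at equal width. Domains at homeobox genes, described next, had the summit within 250 bp of the start in 21.4%.

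Homeobox genes were frequent in the overlap. Of the 42 domains at a homeobox gene, 34 overlapped a Mof+/- peak (81.0%, 66.7 to 90.02), and of the 819 domains without one, 109 did (13.3%, 11.2 to 15.8). The difference was present in each width class. Between 2000 and under 2500 bp, 5 of 7 homeobox domains and 22 of 348 others overlapped, and between 4000 and under 6000 bp 14 of 15 and 21 of 92. The fold enrichment of homeobox domains was ordinary, with a median of 5.52. The tie of homeobox genes to Mof+/- peaks was known from an earlier look at these lists, so these counts are not independent support of it. Of the narrow peaks at homeobox genes, 22 of 113 (19.5%, 13.2 to 27.7) overlapped a Mof+/- peak.

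The Mof+/- peaks also filled more of the homeobox domains. A median of 49.3% of their length was covered (interquartile range 32.3 to 63.3), against 15.8% (9.85 to 35.3) in the 109 other overlapped domains, and 15 of the 34 against 17 of the 109 were covered over at least 50%. At Isl2 the cover was 83.4%, by Mof+/- peaks of 6578 and 480 bp. At Lhx8, a LIM homeobox gene with a domain of 5478 bp (chromosome 3, 154328220 to 154333697), it was 82.2%, and the main Mof+/- peak had its summit 43 bp from that of the domain and a fold enrichment of 8.89. At Hmx2 a Mof+/- peak of 2110 bp had a fold enrichment of 10.1 and a summit 40 bp away, and 39.8% of the domain was covered. Shox2 had 4 Mof+/- peaks over 26.5%. The Hox genes named by their domains included Hoxa9, Hoxa10, Hoxa11, Hoxa13 and Hoxd10, all with a Mof+/- peak, and Hoxa3, with none. These were chosen after their values were seen.

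**Figure D4:**
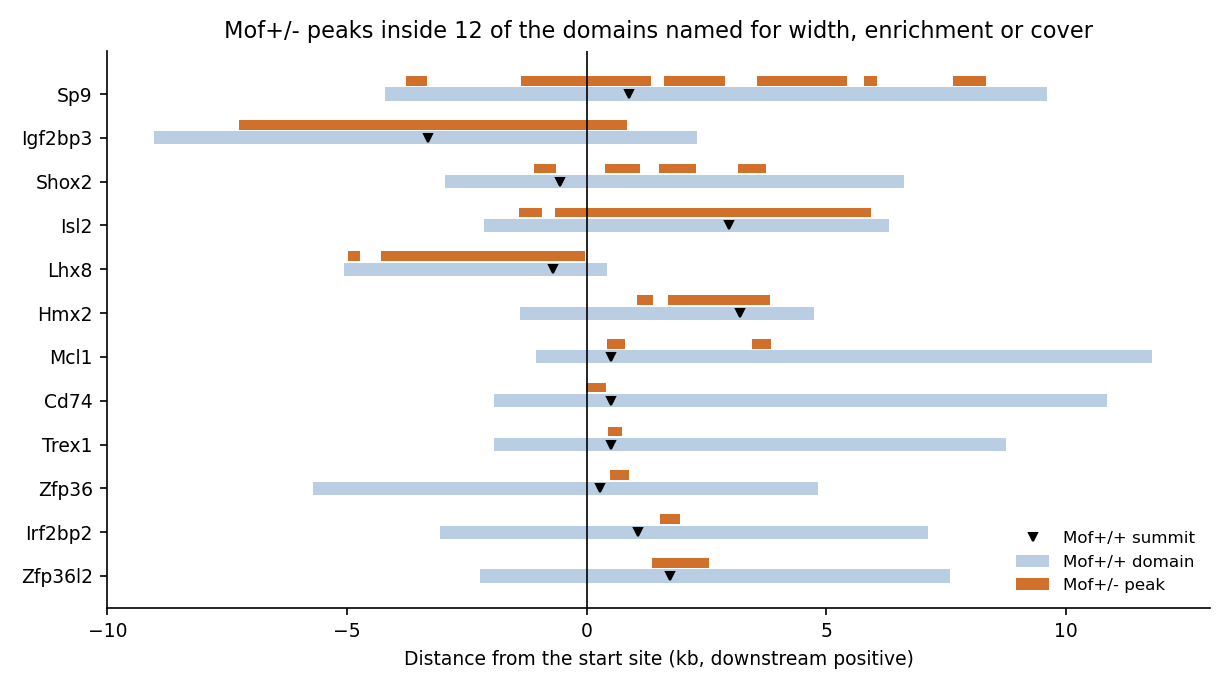
Domains (blue bars) and the Mof+/- peaks inside them (orange bars), in kb from the start site in the direction of transcription; the triangle is the Mof+/+ summit. At Sp9, Igf2bp3, Isl2 and Lhx8 Mof+/- peaks cover 52.5% to 83.4% of the domain, and at Mcl1, Cd74, Trex1, Zfp36 and Irf2bp2 2.80% to 6.01%.

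Among the other wide domains the cover was uneven. At Igf2bp3 a single Mof+/- peak of 8086 bp covered 71.3% of the domain. It had a fold enrichment of 8.36 against 14.9 and 43 fragments against 72, values not scaled for the depth of the lists. At Sp9, 6 Mof+/- peaks covered 52.5%, and the strongest, with a fold enrichment of 9.31, had its summit 1 bp from that of the domain. The Mof+/- peaks at Mcl1 (393 and 380 bp), Cd74 (433 bp), Zfp36 (396 bp), Irf2bp2 (429 bp) and Trex1 (299 bp) were short, rested on 11 to 14 fragments and covered 2.80% to 6.01% of the domain. Zfp36l2 had 11.98% covered, by a peak of 1174 bp. The domain at Bola2, Slx1b and Coro1a had no Mof+/- peak. The widest domains therefore kept between none and most of their length in the Mof+/- list.

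Domains of leukocyte genes overlapped the Mof+/- list at about the share of all domains, 16.6%. Of 28 domains at a gene of the B cell, T cell or shared leukocyte lists, 5 overlapped a Mof+/- peak (17.9%, 7.88 to 35.6). Runx3 was covered over 65.0%, Ikzf3 over 37.3%, Lef1 over 17.2%, and the 2 domains of Pax5 over 38.7% and 11.5%. The leukocyte domains had a fold enrichment like that of the homeobox domains (median 5.53) and 21.4 CpG sites per kb against 47.0. Of the 111 domains under 20 CpG sites per kb, 6 overlapped a Mof+/- peak (5.41%, 2.50 to 11.3), and of the 750 others 137 did (18.3%, 15.7 to 21.2). Of the 19 immediate early and mRNA decay domains 6 overlapped one, with a median of 10.6% covered. Of the 8 insulin and glucose domains that of Txnip did, over 9.85% (12.5%, near the share of all domains), and among the Polycomb domains Cbx8 (24.6%) and Bmi1 (19.1%) did. Neither domain at a gene of the MOF complexes overlapped one.

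**Figure D5:**
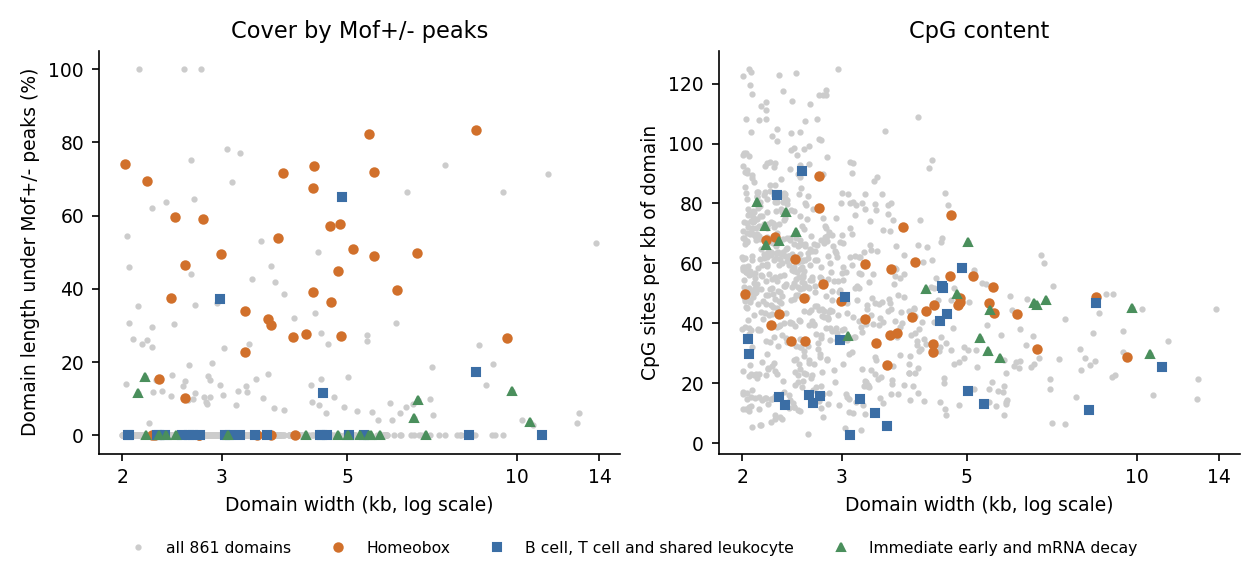
Each point is a domain, by width in kb on a log axis, against the share of its length under Mof+/- peaks (left) and its CpG sites per kb (right). Homeobox domains (orange) have a median cover of 49.3% where they overlap, while 23 of 28 leukocyte domains (blue) lie at 0% cover, as do 718 of all 861 domains. Of the leukocyte domains 14 hold under 20 CpG sites per kb.

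The 3 domains with the highest cover by Mof+/- peaks, each 100%, were unlike the rest. They lay close together on chromosome 9, at Gm10718 (3023637 to 3025774), Gm10717 (3030949 to 3033515) and Gm17535 (3033941 to 3036700). Their fold enrichment was the lowest of all domains, 1.47, 1.69 and 1.18, and their summits held 417 to 1063 fragments over an input background of 353 to 724 fragments, while no other domain had a background over 10. Without these 3, the share of domains that overlapped a Mof+/- peak was 16.3%.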

How the data were processed

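MOF ChIP-seq peak lists of visceral white adipose tissue were analysed, 1 list for each genotype. According to the study's methods and the submitters' processing notes, the authors aligned the reads to GRCm38 (snakePipes) and called peaks with MACS2 (version 2.1.1.20160309.3) against input at a q-value threshold of 0.1. The methods also name a merging of peaks at a distance of 1000 bp. The lists used here hold peaks closer than that (3767 of 19579 Mof+/+ peaks on chromosomes 1 to 19), so they were not merged in this way. Whether replicates were pooled before peak calling is not stated. The design text names 3 Mof+/- animals. The labels give 2 MOF libraries of each genotype and the study's reporting summary 2 littermates. The deposited fold enrichment is a ratio computed by the authors' caller, fragments over local background at the summit, each plus 1. For the p-value and the q-value at the summit the authors deposited the −log10 from that caller, which also gave the summit position.

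Fragments and background at each summit were solved from fold enrichment and p-value (tolerance 0.001 in −log10 p). Genes came from GENCODE M21 and sequence from GRCm38 patch 6, the build of the lists. The reference start of a peak was the coding start nearest the summit among those within 1000 bp of the peak. Shares have 95% Wilson intervals and medians 95% order-statistic intervals, which cover counting error only. Regions and genes are not replicates, so none was tested. The genes named were the 10 widest domains, the 10 with the highest fold enrichment, the 5 with the largest cover by Mof+/- peaks, the 3 on each side of the width limit, up to 4 of each gene list by width and all of the MOF complexes, and further ones are marked as chosen after their values were seen. Sequence windows that touched a UTR or lay on chromosome 18 were not printed. The members and the 24 gene lists were chosen with earlier results of these data known, and 10 genes were on more than 1 list. Steps were tested on simulated peaks and run in Python 3.11.15 with numpy 2.4.6, pandas 2.3.3 and matplotlib 3.10.9. The alternatives were other width minimums, start sites, q-values, overlaps and windows. H3 libraries and signal tracks were not used here. Some genes that these rules name are not reported here.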

Additional observations from a re-analysis of the deposited data

Results flagged for a closer look

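Of the Mof+/+ peaks of at least 2000 bp, 3 lay outside chromosomes 1 to 19 and thus in sequence that no comparison above uses. A peak of 4810 bp on chromosome X had a fold enrichment of 5.75. The other 2 lay near each other on chromosome Y, at 2050 and 2411 bp, with fold enrichments of 3.12 and 3.16.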

How the results depend on the processing

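Of 88 recomputed values, 66 stayed within the interval of the main value, or within 1.5 times it for a count, and 22 did not. With a width minimum of 1500 bp there were 1662 domains at 1798 genes, 11.01% overlapped a Mof+/- peak, 6.80% had one within 100 bp of the summit, CpG content was 55.5 sites per kb and the shared leukocyte list had domains in 90%. With a minimum of 3000 bp there were 311 domains at 340 genes, and the shares were 28.9% and 17.4%. The downstream part then took 63.0% of the length, the summit stood at 0.442, CpG content was 40.3 sites per kb, and the shared leukocyte and homeobox lists had domains in 50% and 13.8%. Merging peaks within 1000 bp gave 1479 domains at 1612 genes. At a q-value of at most 0.01 in both lists 14.1% of domains overlapped a Mof+/- peak. Asking for 50% of the domain gave 3.72%, and for the Mof+/+ summit inside a Mof+/- peak 9.18%. A window of 500 bp at the summit gave 14.2%. At the summit CpG content was 67.9 sites per kb. The cause was not tested beyond the construction of each alternative. The choice of a width minimum thus moved most counts and the overlap, while the share of summits downstream of the start stayed within its interval under every alternative run for it. The B cell share (30%) was 50% with 1500 bp and 15% with 3000 bp. The T cell share (20%) was the same with 1500 bp and 10% with 3000 bp. These values lay within the wide intervals of lists of 20 genes. The T cell interval with 1500 bp, 8.07 to 41.6, included the 8.69% of all coding genes. With 1500 bp 8.33% of adipocyte genes and 8.69% of all coding genes had a domain, and with 3000 bp 1.64% of all coding genes did. Leaving out the 3 domains of high background, chosen after seeing the data, kept all 13 values within their intervals. No paired analysis was possible because there was 1 peak list per genotype and its columns name no replicate, so no library could be left out either. With few fragments at a summit, the lack of a Mof+/- peak does not show a lack of MOF.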
